A study of Mus musculus with 4 samples.

Results

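Small nucleolar RNAs (snoRNAs) and small Cajal body RNAs (scaRNAs) are short noncoding RNAs that guide chemical modification of other RNAs. Box C/D snoRNAs direct 2′-O-methylation by fibrillarin and box H/ACA snoRNAs direct pseudouridylation by dyskerin, mostly on ribosomal RNA, and a few are needed for cutting the rRNA precursor. scaRNAs act on the small nuclear RNAs of the spliceosome. Most snoRNAs of mammals are trimmed out of the introns of host genes, many of which encode ribosomal proteins or translation factors. They are not translated, so reads assigned to them in a ribosome profiling library are not footprints of codons, and how these RNA fragments entered the libraries was not tested.

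Ribosome profiling (Ribo-seq) was performed on primary myoblasts, which are grown from muscle stem cells, isolated from the hind limbs of mice 3 weeks old and examined at day 2 in medium with FGF at 10 µg/ml and cycloheximide at 100 µg/ml before lysis. There were 2 libraries labelled WT and 2 labelled KO. The study describes the KO mice as Pax7-CreERT2/+; eIF5A f/f animals given tamoxifen, so that the gene of the translation factor eIF5A was deleted in cells that expressed Pax7, and the controls as Pax7-CreERT2/+ animals, or in a legend as Pax7+/+; eIF5A f/f. The cycloheximide time was given as 10 min with the samples and as 1 min in the design. Nothing states that the libraries of a group came from separate animals, so p-values measure only the spread between these libraries, which may be technical.

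The genes described here were chosen by reads recovered from the deposited RPKM (reads per kilobase, divided by a denominator for each library). They are the snoRNA and scaRNA rows with at least 10 reads summed over the 4 libraries, outside the imprinted Dlk1-Meg3 region of chromosome 12. Of 55573 rows, 1558 were annotated as snoRNA or scaRNA. Of the 1535 outside that region, 1387 held no read in any library, 52 held 1 to 9 reads and 96 were selected, 87 annotated as snoRNA and 9 as scaRNA. Just inside the threshold lay 6 genes with 10 or 11 reads, and just outside it 5 rows with 8 or 9. The selected genes lay on 20 chromosomes and held 14014 reads, of which 49.0% came from WT replicate 1. A total of 56 genes held at least 40 reads.

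Depth was alike, with 642429 to 704006 gene-assigned reads per library. The composition was not. Mitochondrial rRNA took 39.1% and 30.1% of the WT reads but 15.0% and 18.5% of those from the other group, whereas protein-coding genes took 41.5% and 33.9% against 65.4% and 59.2%. The WT libraries also differed from each other. MicroRNA genes took 4.30% in WT replicate 1 and 16.8% in WT replicate 2, against 2.31% and 2.85%, and the Y RNA gene Rny1 8.36% and 15.3% against 13.04% and 15.3%. The part of these RNAs in the values below was not tested. The deposited RPKM were scaled on denominators of 602863 and 471136 reads for WT and of 906990 and 807705 reads for the libraries labelled KO, so a gene with the same share of all reads in every library has a higher RPKM in WT. The targeted gene, Eif5a, held 50 and 73 WT reads (RPKM 34.9 and 65.2) against 130 and 114 (60.3 and 59.4). It does not separate the groups in the direction of the labels, and these libraries are therefore called "labelled KO" or KO-labelled throughout.

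Genes with the scaRNA biotype or a Scarna symbol were classed as scaRNA, whatever boxes they hold. The class of the others was taken from the gene symbol and, where it gives none, from sequence boxes. A gene without a class symbol was put in box C/D when box C (ATGATGA or GTGATGA) lay in its first 15 bases and box D (CTGA) in its last 15, and in box H/ACA when ACA began 4 to 8 bases from its 3′ end and it held no such box C, all read on the RNA strand only. This gave 47 box C/D genes, 32 box H/ACA genes, 10 scaRNA genes and 7 that could not be assigned. Of the 37 genes that are C/D by symbol, 35 held box D and 20 held both boxes in these exact letters. All 11 genes that are H/ACA by symbol held the ACA, as did 6 of the 10 scaRNAs. Among the first 75 bases of 29472 long noncoding transcripts, 0.0102% held both C and D in the same places, and 9.25% of 29401 first stretches of 134 bases held an ACA there. The ACA alone is thus a loose criterion, and 21 of the 32 H/ACA genes rest on it. Box C/D genes had a median length of 75 bases, H/ACA genes of 134 and scaRNAs of 218.5.

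The sequences of 9 of the genes named below are given 5′ to 3′ as annotated by GENCODE vM21 on GRCm38, where all 96 genes have the same position as in the deposited table. Capitals mark box C and box D in the C/D genes and the ACA in the others. The first 3 are C/D snoRNAs with many reads: Snord104 (chr11:106500993-106501062, plus strand), Snord83b (chr15:80078498-80078591, minus strand, within Rpl3) and Gm22486 (chr6:71882557-71882693, minus strand, within Ptcd3), which RefSeq names Snord94, a guide for U6 small nuclear RNA.
Snord104: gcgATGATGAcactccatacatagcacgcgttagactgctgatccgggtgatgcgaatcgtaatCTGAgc
Snord83b: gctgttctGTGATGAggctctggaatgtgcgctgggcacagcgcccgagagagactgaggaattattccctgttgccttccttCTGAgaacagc
Gm22486: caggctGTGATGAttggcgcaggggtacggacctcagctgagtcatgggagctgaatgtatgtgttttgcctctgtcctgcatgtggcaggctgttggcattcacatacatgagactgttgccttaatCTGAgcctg

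The next 3 are H/ACA genes whose RPKM was below WT in both libraries labelled KO. Gm25848 (chr16:32243712-32243855, minus strand, within Fbxo45) and Gm25776 (chr12:91573430-91573572, minus strand, within Gtf2a1) are 89.6% identical over their length although they sit in different host genes, whereas Gm25117 (chr10:111481493-111481636, plus strand, within Nap1l1) is 56.9% identical to Gm25848.
Gm25848: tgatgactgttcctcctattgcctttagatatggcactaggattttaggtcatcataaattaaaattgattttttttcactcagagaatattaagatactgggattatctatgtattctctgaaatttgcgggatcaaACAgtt
Gm25776: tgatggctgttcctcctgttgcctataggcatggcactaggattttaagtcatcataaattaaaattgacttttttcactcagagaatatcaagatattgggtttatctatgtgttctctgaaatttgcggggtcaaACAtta
Gm25117: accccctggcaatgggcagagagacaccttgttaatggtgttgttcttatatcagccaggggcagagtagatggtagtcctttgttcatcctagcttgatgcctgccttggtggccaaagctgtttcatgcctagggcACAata

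The last 3 are the pair of scaRNAs with the most reads, Gm25492 (chr5:135053988-135054116, minus strand, within Bud23) and Gm23751 (chr6:125121724-125121859, plus strand, within Chd4), and Gm23442 (chr17:35162563-35162696, minus strand, within Prrc2a), the single gene that met the 2-fold criterion upwards.
Gm25492: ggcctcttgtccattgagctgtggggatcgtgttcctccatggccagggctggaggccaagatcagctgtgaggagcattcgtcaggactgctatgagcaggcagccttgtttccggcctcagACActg
Gm23751: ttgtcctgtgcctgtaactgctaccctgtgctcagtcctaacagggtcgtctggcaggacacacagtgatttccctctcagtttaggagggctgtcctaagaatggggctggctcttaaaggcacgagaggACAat
Gm23442: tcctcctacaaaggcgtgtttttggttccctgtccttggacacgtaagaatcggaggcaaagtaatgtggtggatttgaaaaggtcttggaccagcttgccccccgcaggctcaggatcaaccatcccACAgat

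The share of gene-assigned reads that fell in the 96 genes was small and was set apart mainly by a single library. It was 1.06% (95% Wilson interval 1.04% to 1.09%) in WT replicate 1, 0.406% (0.391% to 0.422%) in WT replicate 2, 0.276% (0.264% to 0.289%) in KO-labelled replicate 1 and 0.398% (0.383% to 0.414%) in KO-labelled replicate 2. The intervals of WT replicate 2 and KO-labelled replicate 2 overlap. The means were 0.733% ± 0.462 (SD, n = 2) for WT and 0.337% ± 0.0860 (SD, n = 2) for the libraries labelled KO, and the exact permutation test was two-sided with p = 0.333, the smallest that 2 libraries against 2 allow. As a percent of the deposited denominators the same reads came to 1.14% and 0.554% in WT against 0.215% and 0.320%, so the nearest libraries of the groups are apart on the deposited scale and level on total reads. Without WT replicate 1 the difference in share, KO-labelled minus WT, went from -0.396 to -0.0687 percentage points. Without the 3 genes with the most reads the shares were 0.789% and 0.301% in WT against 0.237% and 0.313%, so the groups overlapped (exact permutation test, two-sided, p = 0.667). Over protein-coding reads only, the shares were 2.55% and 1.20% against 0.423% and 0.672%.

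**Figure D1:**
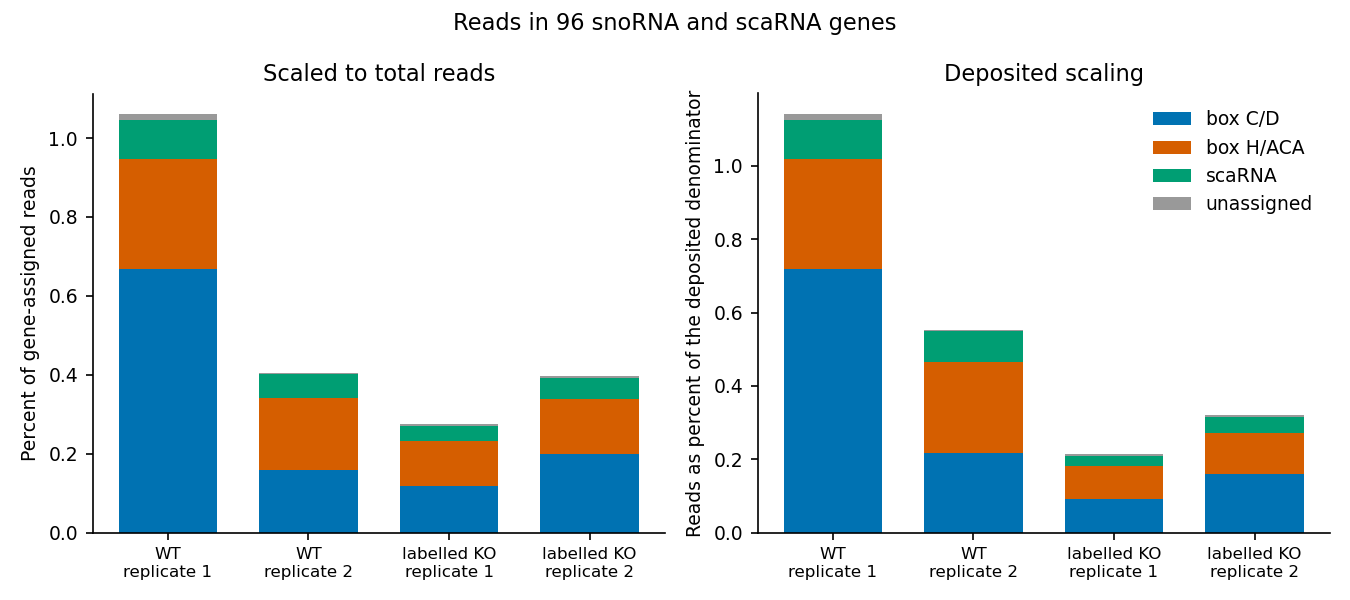
Reads in 96 snoRNA and scaRNA genes in each of the 4 libraries, stacked by class, as a percent of gene-assigned reads (left) and as a percent of the deposited denominator (right). WT replicate 1 stands above the other 3 libraries in both panels, at 1.06% on the left and 1.14% on the right. WT replicate 2 is level with KO-labelled replicate 2 on the left (0.406% and 0.398%) and above it on the right (0.554% and 0.320%).

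Box C/D genes took 63.1% of the reads of the 96 genes in WT replicate 1 (Wilson interval 62.0% to 64.3%) but 39.1% in WT replicate 2 (37.2% to 41.0%), and 42.4% and 50.3% in the libraries labelled KO. This share does not depend on the scaling between libraries. The group means of 51.1% ± 17.0 and 46.4% ± 5.53 (SD, n = 2 each) did not differ beyond the spread between the WT libraries (exact permutation test, two-sided, p = 1). Without WT replicate 1 their difference, KO-labelled minus WT, turned from -4.75 to 7.29 percentage points. Box H/ACA genes took 26.2% and 45.2% in WT and 41.9% and 34.7% in the other group, and scaRNAs 9.31%, 14.9%, 13.2% and 13.4% in the same order. The C/D genes were also those in which the WT libraries were farthest apart. WT replicate 1 exceeded WT replicate 2 by a median of 1.63 on the log2(RPKM + 1) scale over the C/D genes and of 0.69 over the H/ACA genes, while for the scaRNAs the median was -0.18. Across all 96 genes the RPKM had a Spearman rho between 0.769 and 0.839 for each pair of libraries, in the same group or not.

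In the fit across all genes, limma on log2(RPKM + 1), no snoRNA or scaRNA gene was called at an adjusted p under 0.05, against 0.106% of the 11363 rows tested. All 96 genes passed the filter of that fit, a mean RPKM of at least 1. The smallest adjusted p among them was 0.311, and 24 had an unadjusted p under 0.05. By the looser criterion of at least 2-fold with an unadjusted p under 0.05, 23 genes were lower in the libraries labelled KO and 1 was higher, where 4.29% and 2.67% of all rows met the same criterion in these directions. Of the 23, 12 were C/D, 9 were H/ACA and 2 were scaRNA genes. The median log2 difference, KO-labelled minus WT, was -1.11 over the 96 genes and 0.00 over all rows, and 80 of the 96 lay below 0. In bulk libraries such as these, fewer cells of a type and less RNA per cell cannot be told apart.

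The RPKM of both libraries labelled KO lay under both WT libraries in 57 of the 96 genes and above both in 2, where 20.3% and 20.1% of all rows separated in these ways. The scaling decided much of this. With each library scaled to its total of reads, 26 genes separated downwards and 5 upwards, against 7.87% and 41.4% of all rows, and all of these 26 were among the 57. On that scale the median was -0.50 over the 96 genes and 0.50 over all rows, 72 genes lay below 0, and 7 genes met the 2-fold criterion downwards and 2 upwards (1.47% and 13.8% of all rows). Scaled to the reads of the 96 genes themselves, the median was 0.48, with 36 genes below 0, and that of all rows was 1.25. A scaling moves all genes of a library by 1 factor, so the last removes the overall shift of the 96 genes by construction. On the deposited scale without WT replicate 1 the median was -0.83, with 11 genes lower and 6 higher by the 2-fold criterion (5.25% and 3.39% of all rows). Without WT replicate 2 it was -1.94, with 31 lower and 2 higher (6.42% of all rows in each direction). Without KO-labelled replicate 1, and likewise without KO-labelled replicate 2, 13 were lower and 0 higher, where the shares of all rows were 1.96% and 1.75% without the former and 2.81% and 2.31% without the latter.

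**Figure D2:**
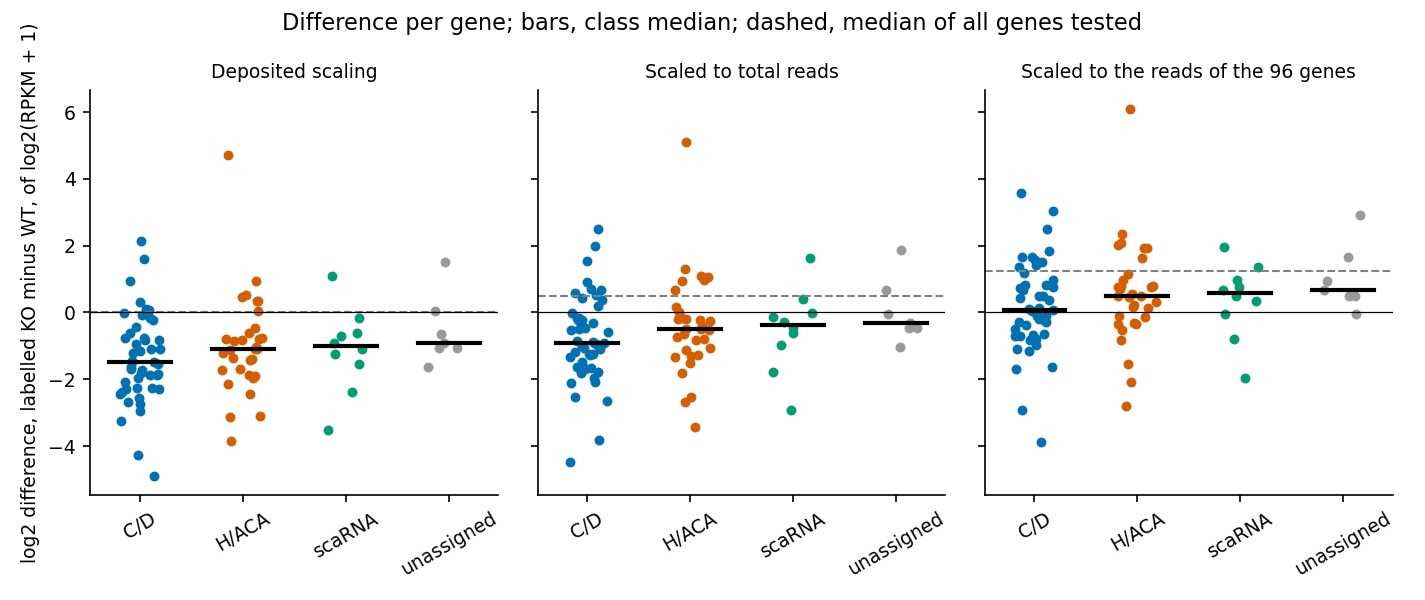
The log2 difference, KO-labelled minus WT, of each of 96 snoRNA and scaRNA genes (points, by class) under the deposited scaling, under scaling to total reads and under scaling to the reads of the 96 genes; black bars are class medians and the dashed line is the median of all rows tested. The median of the 96 genes moves from -1.11 to -0.50 and 0.48 across the panels, and that of all rows from 0.00 to 0.50 and 1.25.

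A count-based alternative on the recovered reads, voom with the deposited scaling, called 10 genes at an adjusted p under 0.05, all lower in the libraries labelled KO, against 0.686% of all rows lower by the same test. They were Gm25117, Gm22270, Gm25835, Gm25776, Gm23751, Gm23301, Gm26202, Gm22486, Snord34 and Gm25848, 5 C/D genes, 4 H/ACA genes and 1 scaRNA gene. Among rows with at least 40 reads this test called 1 of 56 genes and 0.308% of all rows. On total reads it called 0, with 13 lower and 1 higher at an unadjusted p under 0.05, against 1.54% and 17.1% of all rows. Without WT replicate 1, WT replicate 2, KO-labelled replicate 1 or KO-labelled replicate 2 it called 4, 29, 1 and 4 genes, where the shares of all rows were 1.21%, 2.66%, 0.132% and 0.37%. The 10 genes had a median log2 difference of -2.41 in the limma fit, and on the deposited scale the groups overlapped in none of them. Voom chose them as lower on these same reads, so both values follow largely from that choice and are a description. On total reads, from the same libraries, 9 of the 10 separated downwards and Gm26202 did not. The shares of all rows that separated downwards, 20.3% and 7.87%, are of unselected rows and give no yardstick for these 10.

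By class, the median log2 difference was -1.50 over the C/D genes, with 41 of 47 below 0, -1.10 over the H/ACA genes, with 25 of 32 below 0, and -1.001 over the scaRNAs, with 9 of 10 below 0. Other short noncoding RNAs with at least 10 reads also had medians below 0. The median was -1.38 for 63 small nuclear RNA genes, -1.70 for 149 microRNA genes and -1.40 for 11 mitochondrial tRNA genes, and 0.05 for 9496 protein-coding genes. The 3 snoRNA genes of the Dlk1-Meg3 region that held at least 10 reads had a median of 0.91. Differences between these groups of genes were not tested.

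**Figure D3:**
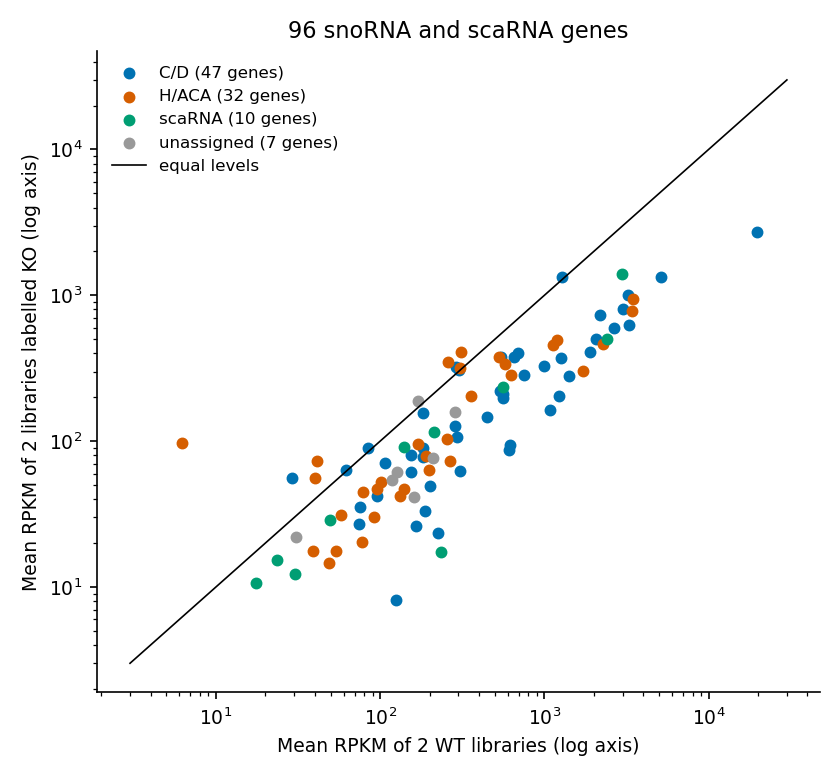
Mean RPKM of the 2 WT libraries (x axis) and of the 2 libraries labelled KO (y axis), both on log axes, for 96 snoRNA and scaRNA genes by class; the line marks equal levels. Most points lie below the line over the whole range of levels, and 1 H/ACA gene, Gm23442, lies far above it.

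Of the rRNA processing snoRNAs that were looked for by name, 2 held enough reads. Snord118 is the U8 snoRNA, which is needed for maturation of the large-subunit rRNAs. Its RPKM was 455 and 660 in WT against 196 and 202 in the libraries labelled KO, from 37, 42, 24 and 22 reads, and 34.3% of its 28-base windows occur in other snoRNA or scaRNA genes. The groups did not overlap on either scale, and the log2 difference was -1.46 ± 0.52 (SE, adjusted p = 0.672, limma). Snord13, the U13 snoRNA, which acts in acetylation of 18S rRNA, had an RPKM of 144 and 163 against 42.4 and 119, with a log2 difference of -1.09 ± 0.61 (SE, adjusted p = 0.697, limma). It rests on 31 reads in all, 4 to 10 per library, and its groups overlap on total reads. Both genes have promoters of their own and no host gene was found for them.

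The other processing snoRNAs that were looked for by name were listed at 0 in every library. These were all 10 rows of U3 (Rnu3), which is required for early cuts in the rRNA precursor, the 4 Snord14 rows, Snord22 (U22), and Snora73a and Snora73b (U17). All 10 U3 rows, the 4 Snord14 rows and Snord22 overlap an exon of another annotated gene on the same strand, as does 1 of the 2 Snora73 rows. Of 160 rows with a Snord, Snora, Scarna, Rnu3 or Rnu73 symbol outside the chromosome 12 region, 99 were at 0 reads, and 78 of these 99 (78.8%) overlapped an exon of another gene on the same strand, 69 of them over at least 90% of their length. Among the 52 such rows that were selected, 4 did (7.69%). Of the other 1375 rows 1288 were at 0, of which 130 (10.1%) overlapped an exon in this way, against 3 of the 44 selected (6.82%). A further 16 of the rows at 0 were copies of Snord116, repeated in the Prader-Willi region, of which 1 copy was selected. The part of gene counting in these zeros was not tested, and a row at 0 is not shown to be unexpressed.

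Gm26202, a C/D gene in an intron of Rpl17, had the highest level of all. Its RPKM was 33532 for WT replicate 1 and 5943 for WT replicate 2, against 1001 and 4457. WT replicate 1 alone stood far above the rest, with 1314 reads, or 19.1% of the reads of the 96 genes in that library, and WT replicate 2 lay nearest to KO-labelled replicate 2. The groups overlap on total reads. The log2 difference was -2.74 ± 1.21 (SE), with an adjusted p of 0.676 in limma and of 0.0159 in voom. Its neighbours in introns of the same host, Gm23301 and Snord58b, held 192, 51, 25 and 43 reads and 74, 21, 5 and 35 reads. All 3 were highest in WT replicate 1 and lowest in KO-labelled replicate 1. Reads on the host itself, the mRNA of a ribosomal protein of the large subunit, went the other way, with 30 and 26 against 80 and 112 and a log2 difference of 1.06.

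Snord104, which guides methylation of 28S rRNA, had an RPKM of 7772 and 2517 in WT against 803 and 1875 in the libraries labelled KO. Snord83b, from an intron of Rpl3, had 4553 and 1897 against 985 and 1027. In both genes WT replicate 1 was the highest and the groups did not overlap on the deposited scale, with log2 differences of -1.85 ± 0.88 and -1.55 ± 0.72 (SE, adjusted p = 0.676 for each, limma). Snord104 held 83 reads in WT replicate 2 and 106 in KO-labelled replicate 2, so on total reads its groups overlap, whereas those of Snord83b do not. Gm22486 (Snord94) had 3753 and 1549 against 418 and 768, a log2 difference of -2.09 ± 0.74 (SE, adjusted p = 0.672, limma, and 0.0222, voom). An exon of another gene covers 28.5% of its length on the same strand. Gm25835, a C/D gene in an intron of Eif4a1, the gene of an RNA helicase of translation initiation, had an RPKM of 1808 and 663 against 184 and 224 and a log2 difference of -2.43 ± 0.68 (SE, adjusted p = 0.635, limma). Its host had a log2 difference of 1.29.

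Rpl13a carries 3 of the C/D genes, which share 1 precursor transcript. Snord34, a guide for 28S rRNA, had an RPKM of 1682 and 485 in WT against 78.8 and 248 in the libraries labelled KO. Snord35a, also a guide for 28S rRNA, had 1050 and 189 against 36.8 and 151. On the deposited scale both lay lower in the libraries labelled KO without overlap, by -2.68 ± 0.87 and -2.56 ± 1.04 (SE, adjusted p = 0.660 and 0.672, limma). Snord35a held 8 reads in WT replicate 2 and 11 in KO-labelled replicate 2, so its groups overlap on total reads, and without WT replicate 1 its difference was -1.32. Snord32a, from the same host, held 40, 20, 25 and 28 reads and differed by -0.78. The lncRNA host 2410006H16Rik also carried 3 of the C/D genes. Snord49a held 231, 24, 25 and 72 reads, Snord49b 35, 24, 8 and 26, and Snord65 12, 3, 9 and 10. WT replicate 1 held most of the Snord49a reads, and the groups overlapped for Snord49a and Snord65. Differences between genes of 1 host were not tested.

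Gm25848 and Gm25776 were the H/ACA genes with the most reads. Gm25848 had an RPKM of 2638 and 4334 in WT against 597 and 1281 in the libraries labelled KO. Gm25776, which resembles it in sequence, had 3492 and 3340 against 840 and 719. Here WT replicate 1 was not apart. The 2 WT libraries of Gm25776 differed by less than the distance to either library labelled KO, and the log2 differences were -1.95 ± 0.73 and -2.13 ± 0.62 (SE, adjusted p = 0.672 and 0.650, limma, and 0.0389 and 0.0129, voom). Scaled to total reads they were -1.33 and -1.52. In Gm25848, 17.1% of the 28-base windows also occur in another snoRNA or scaRNA gene of the annotation, and in Gm25776 none do.

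Gm25117 had an RPKM of 1129 and 2329 in WT against 61.3 and 542 in the libraries labelled KO. It held only 8 reads in KO-labelled replicate 1, and the log2 difference was -3.14 ± 1.10 (SE, adjusted p = 0.672, limma, and 0.00292, voom). Gm22270, within the ribosomal protein gene Rpl5, had 2903 and 1656 against 677 and 244, a log2 difference of -2.43 ± 0.75 (SE, adjusted p = 0.660, limma, and 0.00628, voom). It is 94.7% identical to Gm26387 in another intron of Rpl5 and shares 40% of its 28-base windows with other genes, so reads of the pair are uncertain in their origin. Gm26387 itself held 4, 2, 3 and 13 reads. Gm24119, within the mitochondrial phosphate carrier gene Slc25a3, had 1753 in WT replicate 1, but 492 in WT replicate 2 against 475 and 433, and its log2 difference of -1.03 ± 0.76 (SE, adjusted p = 0.710, limma) rests on the former library. Without it the difference was -0.12, and on total reads the groups overlap.

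**Figure D4:**
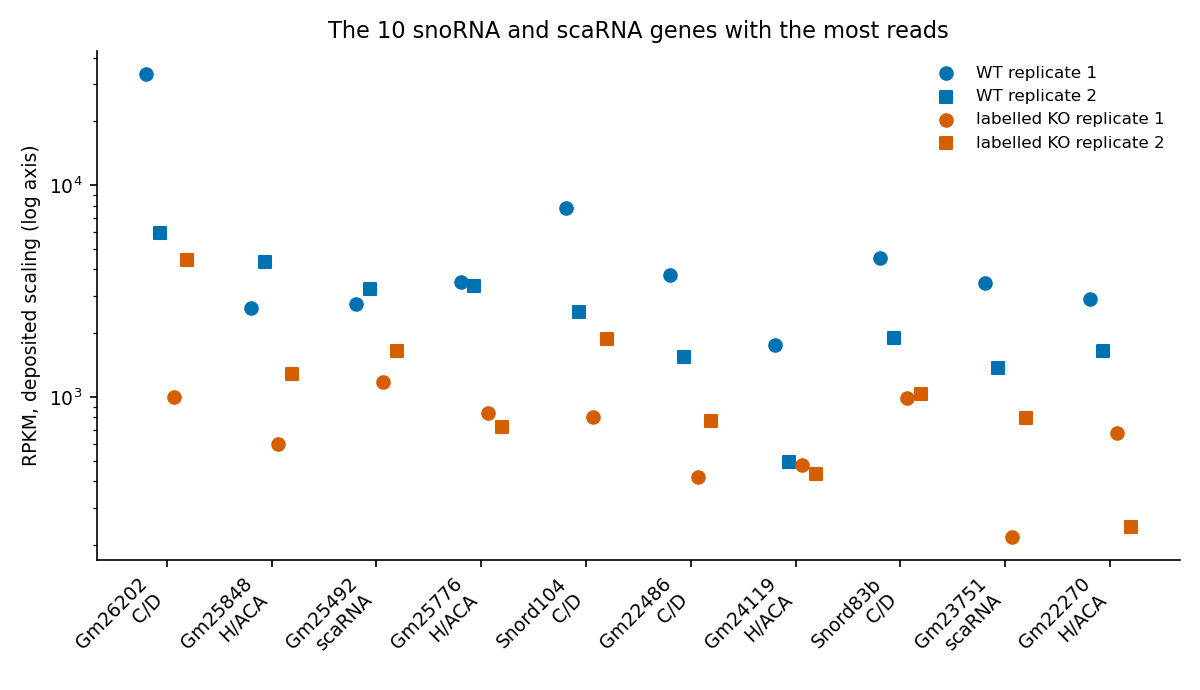
RPKM on a log axis of the 10 snoRNA and scaRNA genes with the most reads, in the WT libraries (blue) and the libraries labelled KO (orange), replicate 1 as circles and replicate 2 as squares. The orange points lie below the blue points in all 10 genes under the deposited scaling, by little for Gm24119 (492 against 475) and by more for Gm25776 (3340 against 840).

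The 4 scaRNA genes with the most reads lay below WT in both libraries labelled KO. Gm25492, the one with the most reads, had an RPKM of 2739 and 3225 in WT against 1180 and 1641 in the libraries labelled KO, a log2 difference of -1.09 ± 0.65 (SE, adjusted p = 0.697, limma). Gm23751 had 3464 and 1373 against 219 and 792, a log2 difference of -2.39 ± 0.88 (SE, adjusted p = 0.672, limma, and 0.0144, voom). Scarna8, a guide for U2 small nuclear RNA, had 532 and 583 against 236 and 236, and -1.24 ± 0.51 (SE, adjusted p = 0.672, limma). Its replicates were close to each other in both groups. Gm22009 had 126 and 155 against 99.6 and 83.0, and -0.61 ± 0.46 (SE, adjusted p = 0.712, limma), which scaling to total reads brought to 0.00. Scarna8 rests on 42 and 36 WT reads against 28 and 25, and on total reads its log2 difference was -0.62. Gm22009 held 26 and 25 WT reads against 31 and 23, and these counts overlap.

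Gm24289, a scaRNA gene within Tipin, had the largest difference among genes with at least 40 reads and groups that did not overlap. It held 28 and 8 WT reads against 2 and 2. It reached 40 reads with 36 of them from WT and both libraries labelled KO were under the floor of 3 reads, so the values that follow are a description. Pooled over each group on the deposited denominators this is a ratio of 14.4, WT over KO-labelled, with an exact 95% Poisson interval of 5.15 to 55.6 that covers counting error only. The log2 difference was -3.51 ± 0.59 (SE), with an adjusted p of 0.311 in limma and 0.104 in voom. Of its 28-base windows, 35.2% occur in other snoRNA or scaRNA genes, so the origin of its reads is uncertain.

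On the deposited scale no gene with at least 40 reads was higher in both libraries labelled KO than in both WT libraries, and 39 of the 56 were lower in both, where 24.3% and 20.3% of all rows with at least 40 reads were. On total reads 3 of the 56 were higher in both and 18 lower, against 52.9% and 5.3% of such rows. The 3, named after their values were seen, were Gm26397 with 26 and 19 WT reads against 35 and 58, Snora31 with 20 and 22 against 32 and 38, and Snord73a with 11 and 10 against 13 and 24. Gm23442 was the single gene that met the 2-fold criterion upwards and is named after its values were seen. It held 1 and 0 WT reads against 10 and 12, a pooled ratio of 13.8, KO-labelled over WT, with an exact Poisson interval of 2.23 to 569 for counting error only. It was selected through the libraries labelled KO, which gave 22 of its 23 reads, so the ratio is a description. The log2 difference was 4.72 in limma and 3.02 in voom, where its adjusted p was 0.243. Both WT libraries lay under the floor of 3 reads, so these log2 differences depend on the value added before the logarithm, and 39.3% of its 28-base windows occur in other snoRNA or scaRNA genes. In all, 14 genes held at most 3 reads in both libraries of a group, none was at 0 in both, and 11 were at 0 in at least 1 library.

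Most of the genes lay inside other genes. A host, meaning a protein-coding or long noncoding gene that contains the snoRNA on the same strand, was found for 90 of the 96, 80 of them in protein-coding and 10 in long noncoding hosts. The 23 genes in ribosomal protein genes came from 14 hosts. An exon of another gene on the same strand touched 7 of the 96, among them Scarna10 over 87.1% of its length, so 89 lay clear of annotated exons. Reads on the hosts were set beside these genes as a description, without a test of the difference. Over the 70 hosts tested the median log2 difference was 0.24, 19 lay below 0, and by the 2-fold criterion in limma 2 were lower and 0 higher, against 4.29% and 2.67% of all rows. Of the 82 genes with a tested host, 68 lay below it, and the median of gene minus host over all 82 was -1.44. Across these 82 genes the rho between a gene and its host was -0.142, a description over genes that share libraries and, in part, hosts. The host value counts ribosome footprints on spliced mRNA for protein-coding hosts, and reads on a noncoding transcript for long noncoding hosts. The snoRNA value counts reads within the snoRNA, so the pair does not compare processing.

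**Figure D5:**
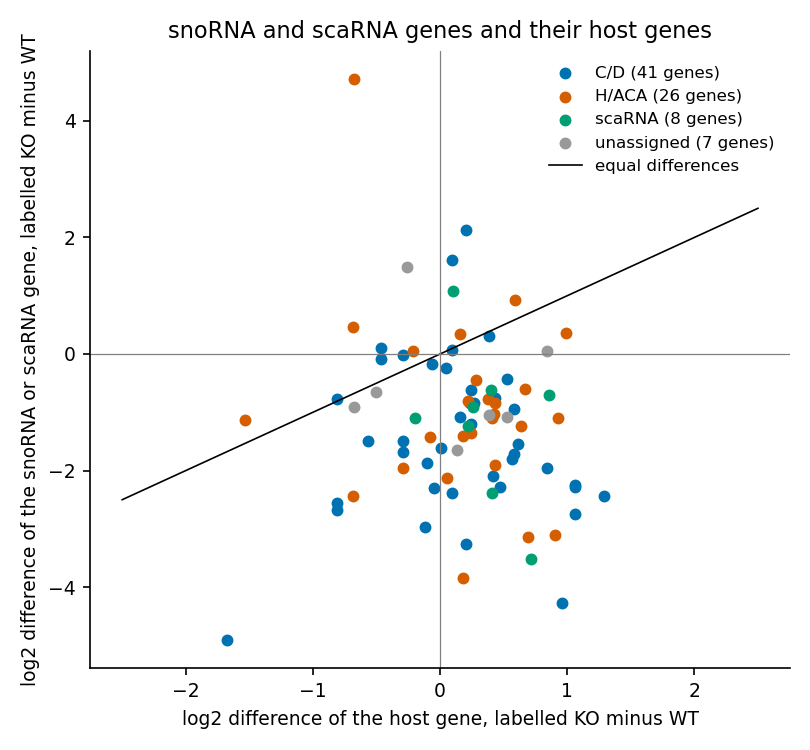
Log2 difference, KO-labelled minus WT, of the host gene (x axis) and of the snoRNA or scaRNA gene inside it (y axis) for 82 genes by class; the line marks equal differences. Of the points, 68 lie below the line, and the hosts centre on 0.24.

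Footprints on the mRNAs of the proteins of these particles were also counted. Of 30 genes of snoRNP cores, assembly, the U3 particle and Cajal bodies, none was called by limma at an adjusted p under 0.05, 1 was higher with an unadjusted p under 0.05 and none was lower, where 2.86% and 4.46% of all rows were. The median log2 difference was 0.33, with 9 of the 30 below 0, and it was 0.05 over the 4 box C/D core genes. Without overlap between groups 11 were higher and 1 lower, against 20.1% and 20.3% of all rows. Dkc1, which encodes the pseudouridine synthase dyskerin, had an RPKM of 1.21 and 3.09 in WT against 7.22 and 10.5 in the libraries labelled KO, a log2 difference of 1.70 ± 0.46 (SE, adjusted p = 0.629, limma). Its WT values rest on only 3 and 6 reads, against 27 and 35. The core genes with a log2 difference below 0 were Snu13 (-0.28) and Nhp2 (-0.60). Fbl, which encodes the methyltransferase fibrillarin, had 5.52 and 5.04 against 4.98 and 6.47. Nop58, a C/D core protein and the host of Snord11, had 3.55 and 9.86 against 11.9 and 13.5. Ncl, which encodes nucleolin and hosts Snord82, had 19.2 and 29.8 against 47.0 and 40.8, while Snord82 held 60, 19, 6 and 32 reads.

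Markers of the labelled cell type had lower RPKM in the libraries labelled KO, though none of the 6 was called by limma at an adjusted p under 0.05. The summed RPKM of 6 myoblast markers was 214 and 170 in WT against 68.3 and 108 in the libraries labelled KO, and all 6 had a log2 difference below 0. Myf5 held only 8 and 4 WT reads against 2 and 0, and Myod1 held 157 and 103 against 82 and 120. The groups did not overlap in 5 of the 6 on the deposited scale, which favours WT, where 20.3% of all rows separated downwards. On total reads this held for 3 of the 6 (Myf5, Pax7 and Des), against 7.87% of all rows. The 6 fibroblast markers summed to 444 and 250 against 750 and 327, and the 4 endothelial markers to 102 and 95.1 against 131 and 106. On the deposited scale 2 of these 6 and 3 of these 4 were higher without overlap, against 20.1% of all rows. On total reads 4 of each list were, against 41.4%. None of either list was lower without overlap. The 5 immune markers summed to 28.4 and 38.5 against 25.03 and 25.9, with Ptprc at 0 in 2 libraries. Of these, Adgre1 (1 and 3 WT reads) and Csf1r (1 and 0) were higher and Cd68 and Lyz2 lower without overlap, and on total reads 3 were higher and 1 lower. The part of cell makeup, and of the mitochondrial rRNA share that moved with the groups, in the snoRNA and scaRNA values was not tested. Gene length and GC content had a Spearman rho of 0.0698 and -0.0146 with the log2 difference over the 96 genes, as a description. A total of 25 genes shared some of their 28-base windows with another snoRNA or scaRNA gene. Over the 65 genes with neither shared windows nor exon overlap the median log2 difference was -1.10.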

How the data were processed

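Ribo-seq libraries of primary myoblasts (2 WT, 2 labelled KO) were analysed from the table of RPKM that the authors deposited. According to the study, reads free of adapter, rRNA and tRNA sequence were aligned with TopHat2 to the mouse genome (mm10, GRCm38) and counted per Ensembl gene with HTSeq; the handling of reads with several matches and of strand is not given in the sources used here. RPKM times gene length, divided by the smallest non-zero product of each library, gave whole reads for 100.0% of values (within 0.01).

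The genes and lists were chosen with earlier results of these data known. The main test was limma 3.58.1 in R 4.3.3 (lmFit, eBayes with trend) on log2(RPKM + 1) over the 11363 rows with a mean RPKM of at least 1, with the group as the only term and Benjamini-Hochberg adjustment over all rows. A log2 difference is on that scale. Since 1 read on a gene this short is worth many RPKM units, the difference of a gene at 0 in a library depends on the value added, and in all 11 such genes its size was above that in voom. Named were processing snoRNAs, the 10 genes with the most reads, any gene called, the 8 largest changes in each direction among genes with at least 40 reads and groups that do not overlap, and the 4 scaRNAs with the most reads; genes named besides were chosen after their values were seen. Gene pairs compared in sequence were aligned globally and identity is over the longer gene. Without molecular identifiers, the intervals and the floor of 3 reads reflect counting error alone. Alternatives covered the pseudocount, filters, scaling, voom, the variance prior, a replicate block and each library left out. Voom with a read minimum and on total reads, and the median without overlapping genes, were added after seeing the data. A fit with 1 library left out has 1 library in a group, so only effect sizes are given for it.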

Additional observations from a re-analysis of the deposited data

How the results depend on the processing

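The count of genes called at an adjusted p under 0.05 was 0 in limma under each setting that follows, where 0 to 21 of all rows were called. The settings were a pseudocount of 0.1, no filter, higher filters, scaling to total reads, quantile normalization, no variance trend, a robust prior and the replicate block. Genes at an unadjusted p under 0.05 numbered 24 as reported, 9 on total reads, 12 with quantile normalization, 32 with the replicate block and 23 to 26 under the others of these settings. Over all rows the share was 7.32% as reported, 16.2% on total reads, 7.30% with quantile normalization, 7.28% with the block and 4.94% to 10.3% under the others. Scaling to the reads of the 96 genes called 1 gene, where 56 of all rows were called. It was Gm23442, higher, on 1 and 0 WT reads, named after its values were seen. Genes called were 10 with voom and 1 with voom at 40 reads or more, where 79 and 21 of all rows were called. By the 2-fold criterion, genes higher in the libraries labelled KO numbered 0 at 40 reads or more, 2 on total reads, 4 on the reads of the 96 genes and 0 to 6 without 1 library, the highest without WT replicate 1. Genes lower numbered 7 on total reads, 1 on the reads of the 96 genes, 11 with quantile normalization and 41 with voom. Over all rows the shares higher were 4.00% at 40 reads or more, 13.8% on total reads and 29.0% on the reads of the 96 genes. The shares lower were 1.47% on total reads, 0.627% on the reads of the 96 genes, 3.45% with quantile normalization and 7.15% with voom. The median difference was -0.50 on total reads and 0.48 on the reads of the 96 genes, and ran from -1.94 to -0.83 without 1 library. The cause was not tested.

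Left-out libraries moved the share of gene-assigned reads, KO-labelled minus WT, from -0.396 percentage points to between -0.723 and -0.0687, and other denominators to -1.12 (without mitochondrial rRNA, microRNA genes and Rny1) and -1.33 (protein-coding reads). It was -0.270 without the 3 genes with the most reads, with overlapping groups. Leaving out 1 library moved the C/D share of reads from -4.75 to between -16.8 and 7.29, the last without WT replicate 1. Scaled to the reads of the 96 genes, the log2 differences of Snord118 (0.14), Snord13 (0.49), Gm25492 (0.50), Gm24119 (0.56), Snord83b (0.053), Scarna8 (0.36) and Gm22009 (0.97) turned positive. This scaling shifts all rows by a median of 1.25, so these signs follow from the shared factor and say nothing of single genes. Also positive were those of Gm25492 (0.40) and Gm24119 (0.091) with quantile normalization. With the replicate block, 0 genes were called and 31 were lower and 1 higher by the 2-fold criterion, against 4.46% and 2.78% of all rows. Same-numbered libraries deviated together with a correlation of 0.143 over the 96 genes, in only 2 pairs, so the numbers do not establish a pairing. For single genes and classes 268 further values kept their direction and their side of the threshold, and 9 named genes passed it in voom only. At this depth, genes of 10 to 39 reads (40 of the 96) allow no firm statement one by one.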
